A study of Sus scrofa with 6 samples.

Results

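Interferon-stimulated genes, the genes that cells switch on when interferon binds its receptor, are described here in cultures of porcine bone marrow mesenchymal stem cells, stromal cells that attach to plastic. A list of 57 gene names defined the set, and a gene was measured where a probe set of the array carried its symbol and no other. This gave 34 measured genes on 37 probe sets, out of 11078 named genes and 27558 probe sets in all, and where a gene had several probe sets the brightest on average was taken. The other 23 names, among them ISG15, DDX58, IFIT5, ISG20, BST2, IFI6, IFITM3 and ADAR, had no such probe set and are not analysed here. Each of the 6 arrays held RNA of a separate culture from female American Yorkshire pigs, 4 months old. Marrow was drawn from the front of the lower jaw at its midline (mandibular symphysis) for 3 cultures and from the tibia for the other 3. The comparison of interest was jaw against long bone. All 6 cultures were plated from whole marrow without sorting, kept in medium with 20% fetal bovine serum, and harvested at passage 0 and 80% confluence, so other adherent marrow cells could remain. The labels name no treatment. The design text names 3 pigs as donors of both kinds of marrow, but the labels do not say which samples share a pig.

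In the textbook account, type I interferon bound to its receptor activates the kinases JAK1 and TYK2, which phosphorylate STAT2. With IRF9 it forms a complex that enters the nucleus and binds the interferon-stimulated response element of target promoters. The targets include sensors of viral RNA, enzymes and RNA-binding proteins that block viral replication, the ubiquitin-like ISG15 system and brakes on the pathway. Stromal cells of marrow express the receptor and respond to interferon.

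Levels are log2 values that the authors normalised by RMA, which gives the arrays nearly equal distributions. Array medians lay between 5.63 and 5.71 and lower quartiles between 3.86 and 3.94. Precision is limited by the small number of arrays. The stromal marker THY1 measured between 10.50 and 10.70 on the 6 arrays, the smallest range of the 11 stromal markers measured. VCAM1 had the largest range of these markers, from 3.68 to 9.52. Markers of jaw and limb went against the labels on 2 arrays. HOXA7, a trunk and limb patterning gene, measured 8.40 on mandibular 2 and 5.26 and 5.23 on mandibular 1 and 3, and it measured 5.89 on tibial 3 against 8.01 and 7.92 on tibial 1 and 2. ALX1, a gene of the facial mesenchyme, measured 3.86 on mandibular 2 and 7.97 on tibial 3, the levels of the other site in each case. Results between sites are therefore given with and without mandibular 2 and tibial 3.

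The interferon-stimulated genes were high on a single array, the one labelled mandibular 2. Of the 34 genes, 29 had their highest value there, where 12.8% of all probe sets did. The mean over the 34 genes was 7.67 on mandibular 2, against 6.37 on tibial 2, 6.30 on tibial 1, 6.19 on mandibular 1, 5.83 on mandibular 3 and 5.76 on tibial 3. The median difference of the genes on mandibular 2 from the median of the other 5 arrays was 1.30 on the log2 scale, and over all probe sets it was -0.02. On the other arrays the same median for these genes lay between -0.38 and 0.13. For 16 of the 34 the value on mandibular 2 was at least 1 log2 unit above the next array, where 0.276% of all probe sets were, and no other array had such a gap for any of them, where 0.0617% to 0.613% of all probe sets did. For 19 of the 34 the gap to the next array was larger than the whole range of the other 5 arrays, which held for 1.38% of all probe sets. A single array has no replicate, so these are differences between libraries and were not tested.

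**Figure D1:**
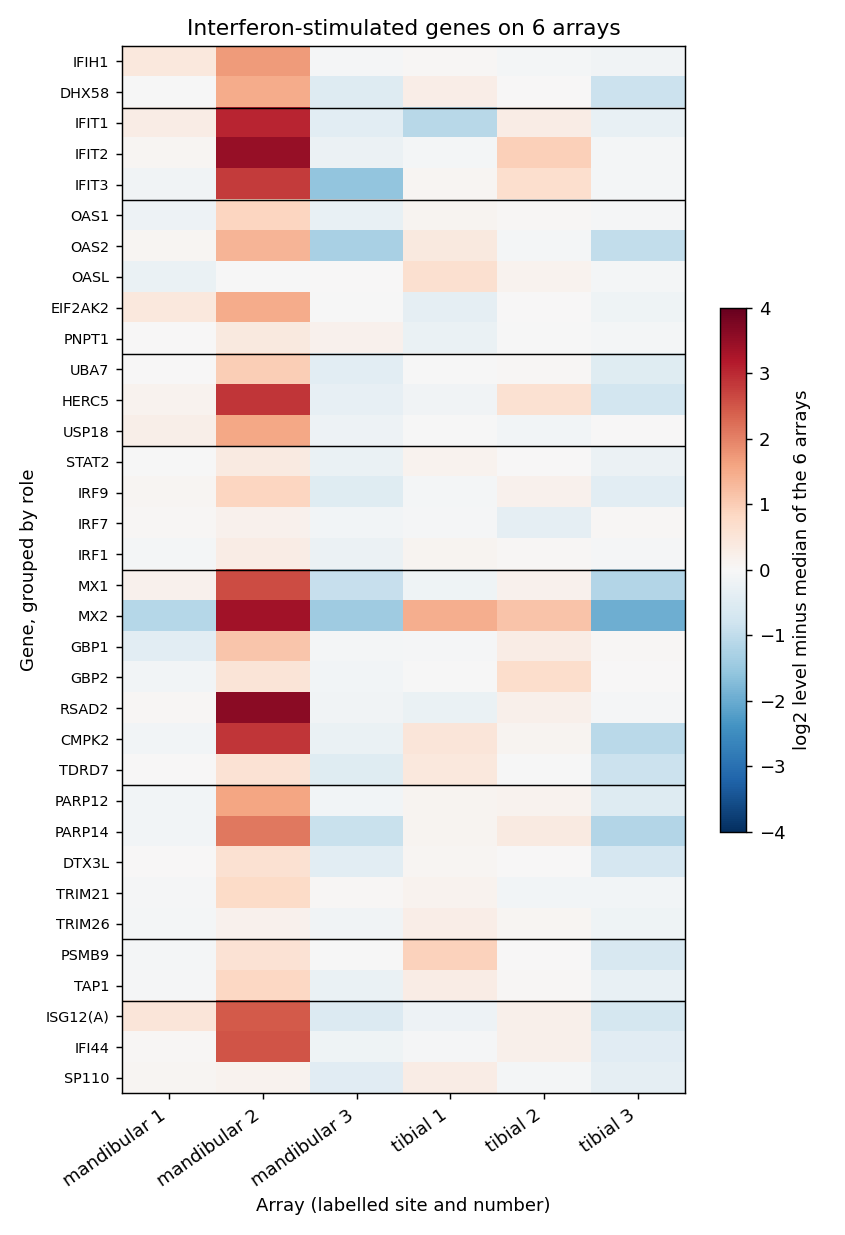
Heat map of the 34 measured interferon-stimulated genes (rows, grouped by role) on the 6 arrays (columns); colour is the log2 level minus the gene's median over the 6 arrays. The column of mandibular 2 is red for nearly all rows, most strongly for IFIT1, IFIT2, IFIT3, RSAD2, MX2, HERC5 and CMPK2, while mandibular 3 and tibial 3 are mostly pale to blue.

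Both measured sensors of cytosolic viral RNA were highest on mandibular 2. IFIH1, which encodes MDA5, the sensor of long double-stranded RNA, measured 6.44, 7.71 and 5.96 on mandibular 1, 2 and 3 and 6.05, 5.94 and 5.85 on tibial 1, 2 and 3. Its value on mandibular 2 was 3.37-fold the median of the other 5 arrays, which spanned 0.58 log2 units. DHX58, which encodes LGP2, a regulator of the other sensors, measured 5.94, 7.44 and 5.47 in mandibular and 6.25, 6.0 and 5.12 in tibial cultures. The 3 tibial values of DHX58 thus overlapped those of mandibular 1 and 3.

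The IFIT genes, whose products bind viral RNA ends and hold back its translation, stood among the highest on mandibular 2. IFIT1, whose product binds RNA lacking the host cap methylation, measured 6.45, 9.21 and 5.72 on mandibular 1, 2 and 3 and 5.06, 6.44 and 5.87 on tibial 1, 2 and 3. IFIT2 measured 4.27, 7.68 and 3.96 in mandibular and 4.13, 5.15 and 4.14 in tibial cultures. IFIT3, a partner that stabilises IFIT1, measured 5.06, 8.01 and 3.64 in mandibular and 5.30, 5.88 and 5.12 in tibial cultures. Mandibular 2 stood 10.1-fold, at least 11.6-fold and 7.42-fold above the median of the other 5 arrays for IFIT1, IFIT2 and IFIT3. The IFIT2 value is a lower bound, since 4 of its other arrays read between 3.96 and 4.27, near the lower quartile, where signal cannot be separated from background. The next highest array was mandibular 1 for IFIT1 and tibial 2 for the other IFIT genes, and mandibular 3 was lowest for IFIT2 and IFIT3. These genes lie next to each other in the RefSeq annotation of Sscrofa11.1, with no protein-coding gene between them.

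**Figure D2:**
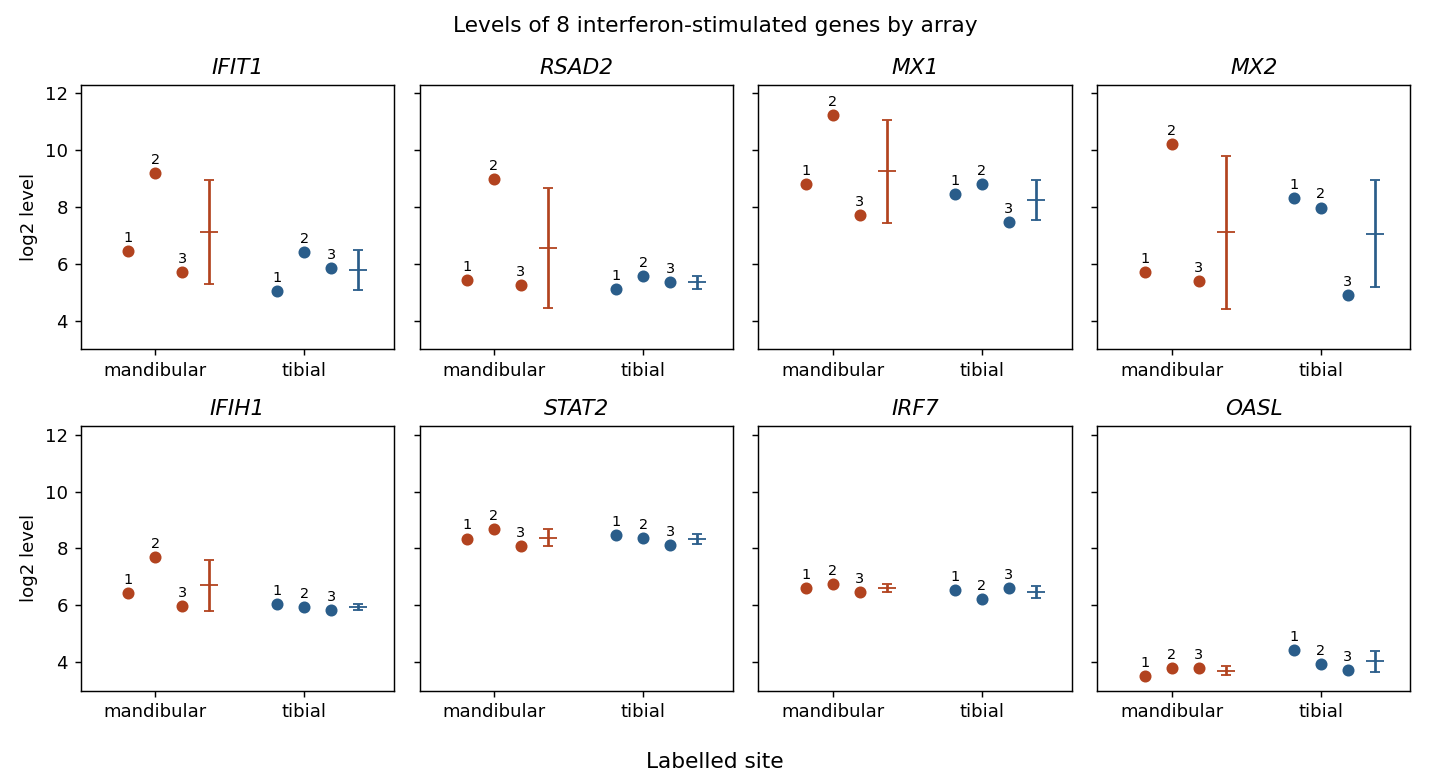
Log2 level (vertical axis) of 8 genes in the mandibular (red) and tibial (blue) cultures; each point is an array, numbered as in the labels, and the bar beside each group is its mean ± SD (n = 3). Mandibular 2 lies far above the other arrays for IFIT1, RSAD2 and MX1, tibial 1 and 2 are also raised for MX2, and STAT2, IRF7 and OASL vary by less than 1 log2 unit.

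Genes for RNA-directed effectors stood less far above the other arrays, and 4 of the 5 measured had their highest value on mandibular 2. OAS1 and OAS2 encode synthetases of 2',5'-oligoadenylate, the messenger that activates RNase L. OAS1 measured 3.92, 4.99 and 3.84 in mandibular and 4.24, 4.18 and 4.07 in tibial cultures. All of these but mandibular 2 lay near the lower quartile. OAS2 measured 8.75, 10.02 and 7.37 in mandibular and 9.05, 8.59 and 7.70 in tibial cultures, so that tibial 1 lay 0.98 below mandibular 2 and well above mandibular 3. OASL, a related protein without synthetase activity that supports RNA sensing, measured 3.51, 3.78 and 3.79 in mandibular and 4.44, 3.94 and 3.72 in tibial cultures. OASL was highest on tibial 1, and its levels lay near the lower quartile. EIF2AK2, which encodes PKR, the kinase that stops translation on double-stranded RNA, measured 8.03, 9.10 and 7.60 in mandibular and 7.26, 7.61 and 7.44 in tibial cultures. Mandibular 1 was the next highest array for EIF2AK2, and mandibular 3 was level with tibial 2. PNPT1, a mitochondrial RNA exonuclease, measured 6.56, 6.95 and 6.73 in mandibular and 6.29, 6.54 and 6.48 in tibial cultures. PNPT1 was the single measured gene of the set whose 3 and 3 values did not overlap, with the mandibular values higher. Over all probe sets 3.35% did not overlap with mandibular higher and 3.57% with tibial higher.

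In the ISG15 pathway, which tags proteins with the ubiquitin-like ISG15, the 3 measured genes were highest on mandibular 2. HERC5, the ligase that joins ISG15 to newly made proteins, measured 5.26, 7.98 and 4.81 in mandibular and 5.0, 5.73 and 4.40 in tibial cultures, and mandibular 2 was 7.90-fold above the median of the other 5 arrays. USP18, which removes ISG15 and damps the interferon receptor, measured 6.44, 7.77 and 6.01 in mandibular and 6.19, 6.10 and 6.23 in tibial cultures. The 5 other arrays of USP18 spanned 0.42 log2 units, and mandibular 2 stood 1.34 above the highest of them. UBA7, the enzyme that activates ISG15, measured 6.71, 7.68 and 6.26 in mandibular and 6.68, 6.75 and 6.22 in tibial cultures.

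Virus restriction genes included the largest gap, that of RSAD2, and the widest range, that of MX2, among the 34 genes. RSAD2, which encodes viperin, the enzyme that makes a chain-terminating nucleotide, measured 5.43, 9.0 and 5.26 on mandibular 1, 2 and 3 and 5.13, 5.59 and 5.36 on tibial 1, 2 and 3. Its 5 other arrays spanned 0.46 and mandibular 2 was 10.6-fold above the highest of them, the largest gap on this array among the 11078 named genes. CMPK2, a nucleotide kinase gene that neighbours RSAD2 in the annotation, measured 5.78, 8.76 and 5.62 in mandibular and 6.39, 6.02 and 4.81 in tibial cultures. MX1, a dynamin-like GTPase that blocks influenza and other viruses, measured 8.82, 11.25 and 7.71 in mandibular and 8.48, 8.80 and 7.48 in tibial cultures. The second probe set of MX1 had the same array on top, at 10.58 against values from 6.72 to 8.17.

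MX2, the GTPase that neighbours MX1 in the annotation, had another arrangement of arrays. It measured 5.72, 10.21 and 5.42 on mandibular 1, 2 and 3 and 8.32, 7.99 and 4.91 on tibial 1, 2 and 3, a range of 5.30 log2 units. Mandibular 2 was 22.6-fold above the median of the other 5 arrays but 3.72-fold above tibial 1, since tibial 1 and 2 lay far above mandibular 1, mandibular 3 and tibial 3. Tibial 1 and 2 were also the arrays with the highest mean over 16 macrophage and monocyte markers, 8.44 and 7.87, against 6.07 on mandibular 2 and 4.69 to 5.26 on the other arrays. The part of these cells in the MX2 levels was not tested. In RNA of mixed cultures, fewer cells of a type and less RNA per cell cannot be told apart.

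The remaining genes of this group varied less. GBP1, an interferon-induced GTPase that attacks intracellular pathogens, measured 4.94, 6.47 and 5.26 in mandibular and 5.31, 5.66 and 5.39 in tibial cultures. Its relative GBP2 was highest on tibial 2, at 5.33, with 5.16 on mandibular 2 and 4.52 to 4.64 on the other arrays. TDRD7, a tudor-domain protein, measured 6.92, 7.48 and 6.42 in mandibular and 7.32, 6.88 and 6.05 in tibial cultures. For TDRD7 mandibular 2 and tibial 1 differed by 0.15, less than the spread of either group.

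Among ADP-ribosyltransferases and ubiquitin ligases, both PARP genes had a gap of more than 1 log2 unit on mandibular 2. PARP14, an ADP-ribosyltransferase, measured 4.58, 6.81 and 3.80 in mandibular and 4.79, 5.04 and 3.50 in tibial cultures. PARP12, another such enzyme, measured 6.73, 8.42 and 6.75 in mandibular and 6.95, 7.0 and 6.34 in tibial cultures, with mandibular 2 at 3.20-fold the median of the other 5 arrays. DTX3L, the ubiquitin ligase partner of PARP9, measured 4.70, 5.32 and 4.27 in mandibular and 4.77, 4.70 and 4.02 in tibial cultures. TRIM21, a cytosolic antibody receptor and ubiquitin ligase, was 7.23 on mandibular 2 and between 6.36 and 6.62 on the other arrays. TRIM26 ranged over 0.42 log2 units and was highest on tibial 1, the smallest range of the 34 genes.

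Both measured genes of antigen processing were high on tibial 1 as well. TAP1, a chain of the peptide transporter for MHC class I, measured 7.13, 7.98 and 6.91 in mandibular and 7.45, 7.20 and 6.88 in tibial cultures. PSMB9, a subunit of the immunoproteasome, measured 5.14, 5.82 and 5.21 in mandibular and 6.16, 5.25 and 4.58 in tibial cultures. Mandibular 2 was thus the top array for TAP1 and stood 0.34 below tibial 1 for PSMB9. A second PSMB9 probe set read lower, between 2.02 and 3.91, with mandibular 2 and tibial 1 close to each other. The second TAP1 probe set repeated the values of the first exactly.

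Of the other induced genes, ISG12(A), a small mitochondrial protein gene of the IFI27 family, measured 7.39, 9.38 and 6.38 in mandibular and 6.73, 7.11 and 6.22 in tibial cultures. IFI44, a cytoplasmic protein gene used as a marker of interferon response, measured 6.25, 8.72 and 6.04 in mandibular and 6.15, 6.39 and 5.76 in tibial cultures. Mandibular 2 stood 6.25-fold and 5.93-fold above the median of the other 5 arrays for ISG12(A) and IFI44. SP110, a nuclear body protein gene, was highest on tibial 1 at 6.79, with 6.64 on mandibular 2.

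The 4 measured transcription factors had gaps on mandibular 2 of 0.69 or less. IRF9, the DNA-binding partner of STAT2, measured 8.92, 9.68 and 8.36 in mandibular and 8.74, 9.0 and 8.40 in tibial cultures, and its gap of 0.69 on mandibular 2 exceeded the 0.64 range of the other 5 arrays. STAT2 measured 8.35, 8.70 and 8.10 in mandibular and 8.49, 8.36 and 8.13 in tibial cultures. IRF1, a factor induced mainly by interferon gamma, measured 6.51, 6.90 and 6.38 in mandibular and 6.71, 6.64 and 6.56 in tibial cultures. IRF7, which drives the second wave of interferon genes, measured 6.62, 6.76 and 6.47 in mandibular and 6.54, 6.23 and 6.62 in tibial cultures. All 4 were highest on mandibular 2, and the gaps of STAT2, IRF1 and IRF7 to the next array were 0.21, 0.20 and 0.14, within the range of their other arrays. The median difference of mandibular 2 from the median of the other arrays was 0.35 for these factors. It was 0.73 for antigen processing, 0.80 for ubiquitin and ADP-ribose enzymes and 0.92 for RNA-directed effectors. It was 1.58 for the ISG15 pathway, 1.62 for the sensors, 2.57 for the other induced genes, 2.77 for virus restriction genes and 3.34 for the IFIT genes.

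The lowest value of the 6 was on tibial 3 for 17 of the 34 genes and on mandibular 3 for 10, where 13.1% and 15.3% of all probe sets were lowest on these arrays. With mandibular 2 set aside, the highest value was on tibial 1 for 15 genes and on tibial 2 for 11, where 26.4% and 17.1% of all probe sets were highest. It was on mandibular 1 for 6, near the 20.0% of all probe sets, and on mandibular 3 and tibial 3 for 1 each, where 19.3% and 17.2% were. The median range over the arrays was 1.67 for the 34 genes with all 6 arrays and 0.75 without mandibular 2, against 0.53 and 0.49 over all probe sets. A range of at least 1 log2 unit was reached by 25 genes with all arrays, where 16.1% of all probe sets reached it, and by 13 without mandibular 2, where 14.2% did.

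**Figure D3:**
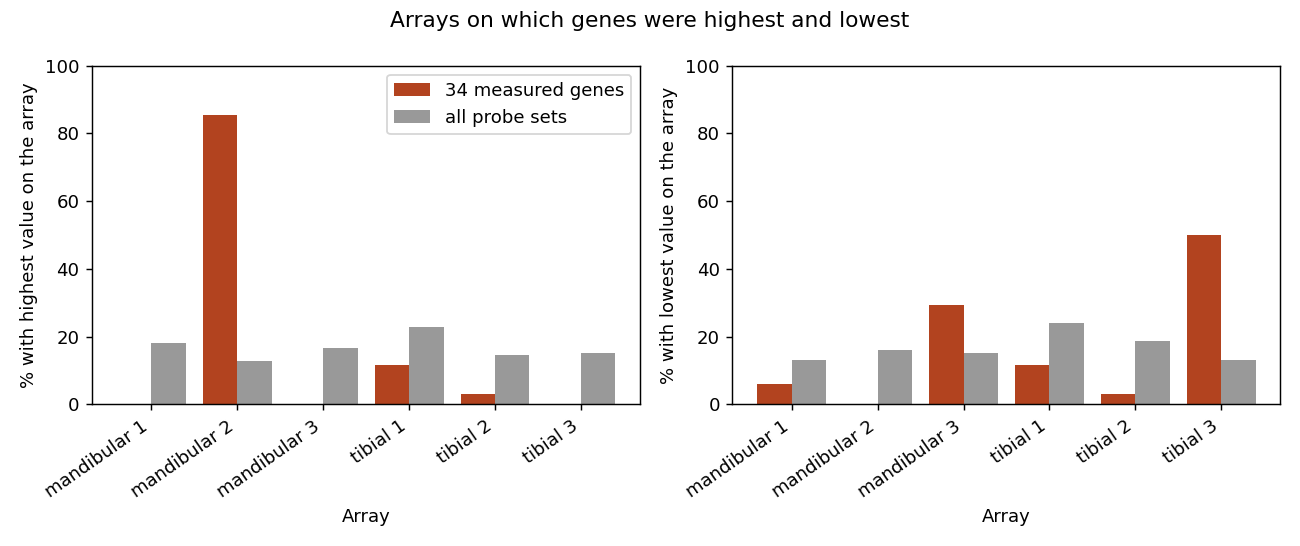
Share of genes (percent, vertical axis) with their highest value (left) or lowest value (right) on each array, for the 34 interferon-stimulated genes (red) and for all probe sets (grey). On the left 29 of the 34 fall on mandibular 2; on the right 17 fall on tibial 3 and 10 on mandibular 3.

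Between the labelled sites no interferon-stimulated gene passed the test. The limma fit over all 27558 probe sets gave 0 of 34 genes past an adjusted p of 0.05, where 0.0% of all probe sets passed, and 0 of 34 at an unadjusted p under 0.05, where 3.03% did. On the log2 scale 29 of 34 genes were higher in mandibular cultures, where 51.0% of all probe sets were, and the median difference was 0.28, against 0.004 over all probe sets. The smallest unadjusted p of the set belonged to EIF2AK2, with a mandibular level of 8.25 ± 0.78 (SD, n = 3) and a tibial level of 7.44 ± 0.17 (SD, n = 3). The EIF2AK2 difference was 0.81 (SE 0.37; limma adjusted p = 0.9995). PNPT1 differed by 0.31 (SE 0.14) and IFIH1 by 0.75 (SE 0.42). Without mandibular 2 the differences of EIF2AK2 and IFIH1 were 0.38 and 0.25. IFIT1 had the largest difference, 1.34 (SE 0.89), with a mandibular SD of 1.84 against 0.69 in tibial cultures, and it was 0.30 (SE 0.44) without mandibular 2. RSAD2 differed by 1.21 (SE 0.95), ISG12(A) by 1.03 (SE 0.72), MX1 by 1.01 (SE 0.87), HERC5 by 0.98 (SE 0.83), CMPK2 by 0.98 (SE 0.88) and IFI44 by 0.90 (SE 0.69). USP18, PARP12, TRIM21 and IRF7 differed by 0.57, 0.54, 0.28 and 0.15, and OASL by -0.34 (SE 0.20). The limma adjusted p was 0.9995 for each of the genes named here.

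The direction turned without mandibular 2. Then 10 of the 34 genes were higher in mandibular cultures and 24 lower, with a median of -0.08, where 47.3% of all probe sets were lower. RSAD2, MX1 and USP18 differed by -0.01 (SE 0.18), 0.01 (SE 0.49) and 0.05 (SE 0.17) in that fit, while the largest differences of the set were those of MX2, -1.51 (SE 1.03), and IFIT3, -1.08 (SE 0.46). None of the 34 passed an unadjusted p of 0.05, where 3.19% of all probe sets did. IFIT3, OAS1, IRF1, GBP1 and GBP2 were then higher in all 3 tibial cultures than in mandibular 1 and 3, where 7.91% of all probe sets were, and PNPT1 was lower in all 3, where 9.08% were. The median was 0.73 without mandibular 3, 0.47 without tibial 1 and 0.15 without tibial 3. With mandibular 2 and tibial 3 both left out, a choice made after the data were seen, 28 of 34 genes were lower in mandibular cultures, where 46.2% of all probe sets were, and the median was -0.28. In that fit MX2 was the single gene of the set past the threshold, at -2.59 (SE 0.21; limma adjusted p = 0.01341), where 0.708% of all probe sets passed, and 3 of the 34 had an unadjusted p under 0.05, where 9.5% did. Values of mandibular 1 and 3 did not overlap those of tibial 1 and 2 for 17 of the 34, of which 16 were higher in tibial cultures, where 16.6% of all probe sets were, and 1, PNPT1, in mandibular cultures, where 20.7% were. The macrophage marker means given beside MX2 separated the same arrays, and their part in these differences was not tested.

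**Figure D4:**
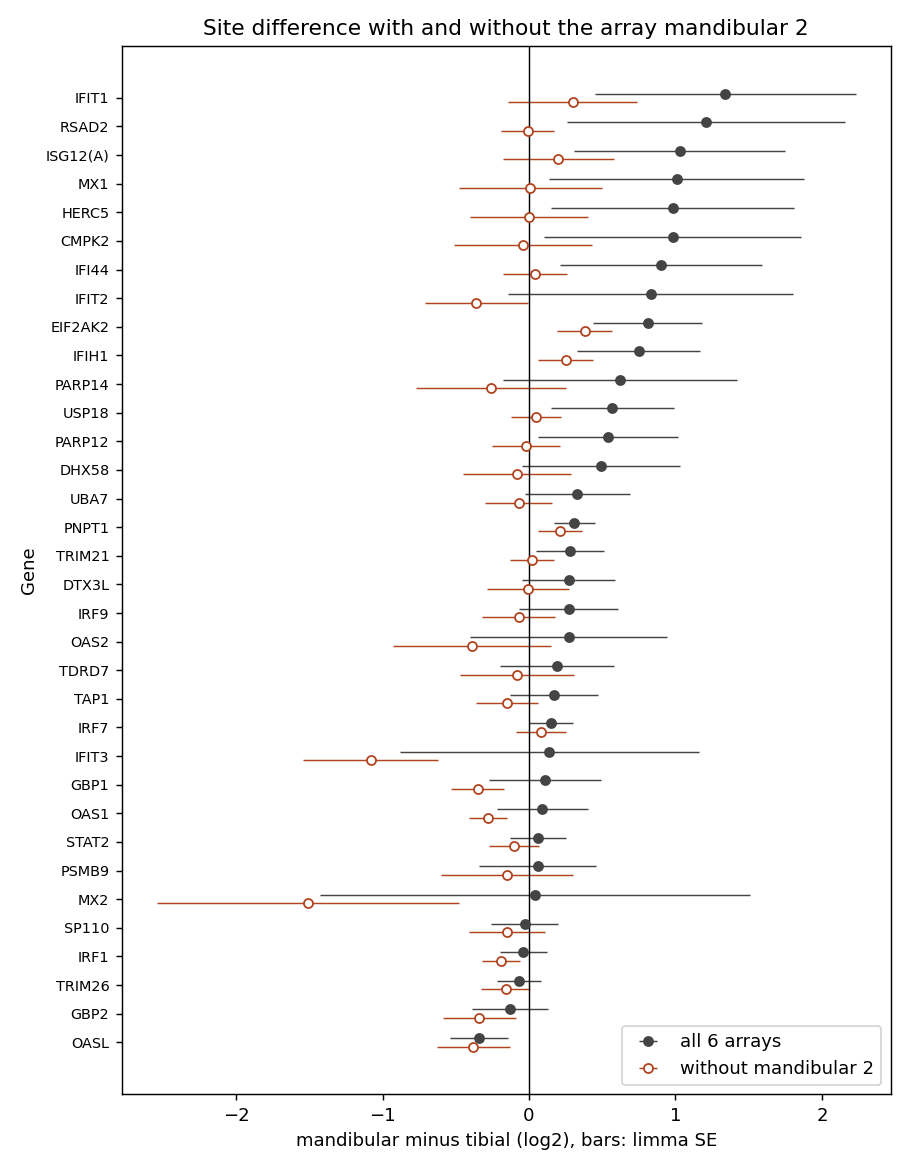
Difference in level, mandibular minus tibial on the log2 scale (horizontal axis), for each of the 34 genes with all 6 arrays (filled) and without mandibular 2 (open); bars are the limma SE. Filled points lie right of 0 for 29 genes, and open points lie left of 0 for 24.

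Genes around the interferon-stimulated genes in the pathway were described from lists, with 26 of 92 genes, or 28.3%, highest on mandibular 2, against the 12.8% of all probe sets. In limma 0 genes of these lists passed the adjusted threshold between sites, and at an unadjusted p under 0.05 there were 4 of 92, or 4.35%, near the 3.03% of all probe sets. They were MB21D1, which encodes the DNA sensor cGAS, at a higher mandibular level, and TLR4, TLR8 and IKBKE at lower ones. Of the interferons, IFNB1, IFNG, IFNE and IFNK were measured, at levels from 2.31 to 3.38 on all arrays, below the lower quartile. IFNB1, the interferon that stromal cells make on viral infection, measured 2.76, 2.82 and 2.88 in mandibular and 2.93, 2.58 and 2.66 in tibial cultures. The list of interferons and receptors had 14 names, of which 6 were measured. IFNA1, IFNW1 and both chains of the type I interferon receptor, IFNAR1 and IFNAR2, were not among them. Of the 6 genes 0 were highest on mandibular 2, and IFNGR1, a chain of the interferon gamma receptor, measured between 8.52 and 8.93. IFNLR1, a chain of the interferon lambda receptor, had the widest range of this list and measured between 4.18 and 4.81. In the list of JAK-STAT signalling 1 of 7 was highest there. IRF5, a factor that drives inflammatory genes in myeloid cells, measured 6.18 and 5.94 on tibial 1 and 2 and between 5.19 and 5.49 on the other arrays, so that it was highest where the macrophage marker mean was. JAK1 measured 9.97 on mandibular 2 and 10.27 on tibial 1. JAK2, a kinase of the interferon gamma receptor, was lowest on mandibular 2, at 7.47, and IRF2, an antagonist of IRF1, was 7.09 there and 7.05 on tibial 1.

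Upstream sensors and adaptors had their highest value on mandibular 2 for 3 of 13 genes, where 12.8% of all probe sets did. ZBP1, a sensor of Z-form nucleic acid that is itself induced by interferon, measured 5.19, 6.25 and 4.50 in mandibular and 5.41, 5.19 and 4.81 in tibial cultures. The Toll-like receptor genes were highest on tibial arrays, with TLR4 at 7.25 and 7.12 on tibial 1 and 2 against 5.01 on mandibular 2, TLR7 at 7.30 and 6.81 against 5.74 and TLR9 at 7.21 and 6.88 against 5.84. On these arrays the mean of the macrophage and monocyte markers was also highest, 8.44 and 7.87 on tibial 1 and 2 against 6.07 on mandibular 2, and their part in the Toll-like receptor levels was not tested. Negative regulators were highest on mandibular 2 for 1 of 6 genes, and CISH, a feedback inhibitor of cytokine receptors, was highest on tibial 1 at 6.54, with 6.23 on tibial 2 and 5.95 on mandibular 2, the same order of arrays as the macrophage markers.

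The list of interferon gamma and MHC class I genes was highest on mandibular 2 for 9 of 18, where 12.8% of all probe sets were. CXCL10, a chemokine that attracts T cells, measured 2.87, 6.41 and 2.53 in mandibular and 3.20, 3.59 and 2.59 in tibial cultures, a gap of at least 2.82. Its values on the other 5 arrays all lay below the lower quartile. The related chemokines CXCL9 and CXCL11 reached 3.10 and 3.89 on mandibular 2, near or below the lower quartile. B2M, the light chain of MHC class I, measured 11.42 on mandibular 2 and 11.54 on tibial 1, and the class I gene SLA-3 measured 8.74 and 8.75 on these arrays. ERAP1, which trims peptides for MHC class I, measured 8.06 on mandibular 2 and 7.98 on mandibular 3. Of 20 further interferon targets outside the set, 6 were highest on mandibular 2, with PML, the organiser of nuclear bodies, at 8.74 there and between 7.13 and 7.55 on the other arrays. PLAC8 measured 5.39 on mandibular 2 against a highest other value of 4.55, and SLFN11, a restriction factor, measured 8.74 against 8.26. CASP1, which activates interleukin-1, had its lowest value there, 8.93.

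Inflammatory targets of NF-kB were highest on mandibular 2 for 6 of 14 genes, where 12.8% of all probe sets were. IL1A, the cytokine interleukin-1 alpha, measured 4.26, 7.48 and 5.25 in mandibular and 6.54, 6.38 and 5.0 in tibial cultures. The monocyte chemokine gene CCL2 measured 9.68, 12.09 and 10.25 in mandibular and 11.85, 10.94 and 9.99 in tibial cultures. For both, tibial 1 was the next highest array. CXCL8 was lowest on mandibular 2, at 7.42, and highest on tibial 3, at 10.20, and PTGS2 was highest on mandibular 3. Genes of the unfolded protein and integrated stress responses were highest on mandibular 2 for 0 of 8, and DDIT3, a transcription factor of stress, was highest on tibial 2 at 8.39, as was CHAC1, an enzyme of glutathione breakdown, at 10.94. The medians of the difference between mandibular 2 and the median of the other arrays were -0.08 for interferons and receptors, 0.01 for JAK-STAT signalling, 0.30 for interferon gamma and MHC class I genes, 0.60 for NF-kB targets and -0.24 for stress genes. They were 0.18 for the 20 further interferon targets outside the set, 0.13 for upstream sensors and adaptors and 0.09 for negative regulators.

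**Figure D5:**
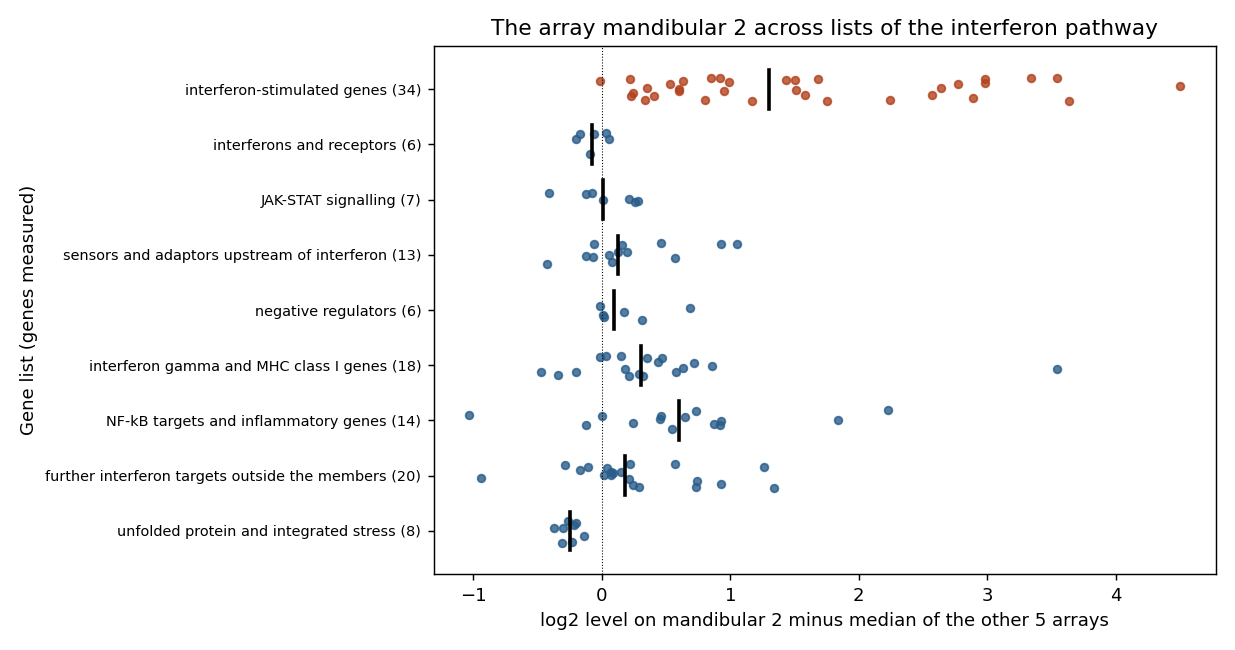
Log2 level on mandibular 2 minus the median of the other 5 arrays (horizontal axis) for each gene of the interferon-stimulated set (red) and of 8 further lists (blue), with the number of genes measured in brackets; the vertical bar is the list median. The set has a median of 1.30, and the medians of the other lists lie between -0.24 and 0.60.

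The gap on mandibular 2 was not limited to these genes. Of the 11078 named genes 43 lay at least 1 log2 unit above the other arrays there, which is 0.388%, and 16 of the 43 were interferon-stimulated genes of the set. This is 37.2% of the 43 and 47.1% of the 34. Among the 10 named genes with the largest gaps 7 belonged to the set. Outside it the largest gaps belonged to FLT1, a receptor of vascular endothelial growth factor, at 8.14 against 4.16 to 4.91 on the other arrays, to CXCL10, whose other values lay below the lower quartile, and to ANKRD1, a stress-responsive muscle and stromal gene, at 7.80 against a highest other value of 5.25. MSTN, which encodes myostatin, measured 8.25 there and 6.27 on mandibular 3, the next highest. Then came GLDN, the cytokine receptor gene IL20RA, the adhesion receptor genes ADGRG1 and ADGRG2, EDN1, which encodes endothelin-1, BTC, GPR63, TGFB2, DAW1, ACTA1 and GREM1, with gaps from 1.93 down to 1.27. Of these 15 genes CXCL10 was the single one in a pathway list. In the other direction LPCAT2, DCN, EFS, PAK1 and P4HA3 had the largest gaps below the other arrays, from 1.29 to 0.90. DCN, which encodes the matrix proteoglycan decorin, measured 9.99 on mandibular 2 and between 11.26 and 11.98 elsewhere.

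Lists of markers of other cell types had their highest mean on tibial 1. The 16 macrophage and monocyte markers had 0 members highest on mandibular 2, where 12.8% of all probe sets were highest. Their mean was 6.07 there, above 4.69 and 4.74 on mandibular 1 and 3. It was 8.44, 7.87 and 5.26 on tibial 1, 2 and 3. The median difference of these markers on mandibular 2 from the median of the other 5 arrays was 0.92. Their part in the levels on mandibular 2 was not tested. On mandibular 2, C1QA and C1QB measured 8.59 and 8.45, against 10.62 and 10.87 on tibial 1. Only 4 of 9 markers of plasmacytoid dendritic cells, the main producers of type I interferon in blood, were measured, and their mean was 6.10 on mandibular 2 and 6.96 on tibial 1. The mean of 16 lymphocyte markers was 4.25 on mandibular 2 and lay between 4.18 and 4.63 on all arrays, with NKG7, a gene of cytotoxic lymphocytes, at 6.28 on mandibular 2 against 9.84 on tibial 1 and 5.0 to 8.40 on the other arrays. CD2, a T and NK cell adhesion receptor, was the 1 lymphocyte marker highest on mandibular 2, at 3.89 against 3.32 to 3.57. The mean of 6 granulocyte markers was 4.29 there and 5.39 on tibial 1, that of 6 endothelial markers was 4.74 there and 5.18 on tibial 1, and that of 6 epithelial markers was 5.0 there and 5.33 on tibial 1. The mean of 11 stromal markers lay between 9.58 and 10.12, and that of 6 housekeeping genes between 11.01 and 11.19. Ranges of the single stromal markers over the arrays went from 0.20 for THY1 to 5.85 for VCAM1. The mean of 10 immediate early and heat shock genes was 9.65 on mandibular 2 and between 9.45 and 9.94 on all arrays. The mean of 5 cell cycle genes was 7.09 on mandibular 2, with the lowest level, 5.57, on tibial 1 and the highest, 8.01, on mandibular 3.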

How the data were processed

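RNA of 6 porcine cultures was measured on 6 Affymetrix arrays. The deposited log2 values were used as they stand. Per the submitters' processing notes, the authors worked with RMA, with Affymetrix Expression Console, and with version 3.0 of Transcriptome Analysis Console. Settings and genome build: not given in the sources used here. Because RMA equalises the arrays, a uniform change of every gene on an array would not be seen, and no measure of detection was used. Gene symbols came from GEO's platform annotation: 13157 probe sets had 1 symbol, 523 several and 13878 none, and 7 symbols were updated by Entrez number. Named genes exclude symbols beginning with LOC.

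Sites were compared by lmFit and eBayes of limma 3.58.1 under R 4.3.3, two-sided and unpaired, with Benjamini-Hochberg adjusted p-values over 27558 probe sets and a threshold of 0.05. Marrow of both sites came from the same 3 pigs, which the unpaired fit leaves out. Its p-values treat the cultures as independent, which cultures that share a pig are not. No label ties a number to a pig, so the main fit did not use the number as a pairing. Same-numbered deviations from the site means correlated at -0.0331, 0.2121 and 0.4729, and differently numbered ones at -0.4861 to 0.3606. These values cannot decide the pairing, since mandibular 2 and tibial 3 had jaw and limb markers of the other site. Alternatives left out single arrays, centred arrays, dropped low probe sets, weighted arrays, changed the eBayes setting, averaged the probe sets of a gene or used the number as a block. Fold values are 2 to the power of a log2 difference.

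The genes, lists and tests were chosen with earlier results of these data known. By the naming rule, levels on every array are given for genes with a range of at least 1 and for sensors, IFIT, OAS, ISG15 pathway and transcription factor genes. Differences are given for the 15 genes with the smallest unadjusted p, up to 4 genes with the largest range are named per pathway list, and 15 genes above and 5 below are named by gap on mandibular 2. Other genes named were chosen after their values were seen. Promoter sequences were not used here.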

Additional observations from a re-analysis of the deposited data

How the results depend on the processing

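With the sample number as a replicate block, 0 probe sets and 0 of 34 interferon-stimulated genes passed in limma, 2 of the 34 had an unadjusted p under 0.05, where 5.48% of all probe sets did, and the median of the set stayed at 0.28. In single omissions of an array the median ranged from -0.08 (without mandibular 2) to 0.73, the number of genes higher in mandibular cultures from 10 (without mandibular 2) to 31, the number without overlap from 1 to 7 (without mandibular 3, where 12.7% of all probe sets did not overlap), and the probe sets past the threshold from 0 to 2 (without tibial 3). In the same omissions the differences of RSAD2, HERC5, PARP12 and CMPK2 ranged from -0.01 to 1.86, from -0.0046 to 1.58, from -0.02 to 0.82 and from -0.04 to 1.53, and those of ISG12(A), IFI44, TRIM21 and MX1 from 0.20 to 1.69, from 0.04 to 1.39, from 0.02 to 0.42 and from 0.01 to 1.78. Those of IFIT1, EIF2AK2, IFIH1, USP18, IRF7 and OASL ranged from 0.30 to 2.04, from 0.38 to 1.13, from 0.25 to 1.12, from 0.05 to 0.93, from 0.03 to 0.23 and from -0.49 to -0.14. The PNPT1 difference ranged from 0.21 to 0.41. Without mandibular 2 and tibial 3 together, a choice made after the data were seen, 195 probe sets and 1 of the 34 passed, 6 were higher in mandibular cultures, the median was -0.28 and 17 did not overlap, where 37.3% of all probe sets did not. The differences of ISG12(A), IFI44, RSAD2, TRIM21, HERC5, MX1, PARP12 and CMPK2 were then -0.04, -0.13, -0.01, -0.02, -0.32, -0.37, -0.23 and -0.51. With each array centred on its median 2 genes did not overlap, where 7.19% of all probe sets did not, and with the deposited values 1. The causes were not tested. The number of genes highest on mandibular 2 was 29 of 34 also when arrays were centred, probe sets averaged or tibial 3 left out. The count with a gap of at least 1 log2 unit, 16 with the deposited values, was 17 with centred arrays and 16 without tibial 3. With a gap of 0.5 the count was 24, where 1.1% of all probe sets had one. The 2 genes with mean levels near the lower quartile were OASL and OAS1. OASL, and OAS1 on all arrays but mandibular 2, lay near or below it, where signal cannot be separated from background. OAS1 measured 4.99 on mandibular 2. IFIT3 on mandibular 3, at 3.64, and PARP14 on mandibular 3 and tibial 3, at 3.80 and 3.50, also lay below that quartile.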
